A study of Mus musculus with 167 samples.

Results

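The leukocyte (WBC) fraction of blood from C3H mice was compared between mice that had received whole thorax lung irradiation (WTLI) and sham irradiated mice. All microRNA (miRNA) that passed a count filter over the leukocyte libraries of C3H and C57Bl/6 mice were covered. The comparison used every C3H library of the fraction, which came to 11 of the 167 libraries of the series, with 6 from irradiated and 5 from sham irradiated animals. All were C3Hf/Sed/Kam females (C3H) sampled in month 4. WTLI was a single exposure of the chest under anaesthesia with the rest of the body shielded and the animals sampled were those still alive at the endpoint. The mice were gnotobiotic, and each library came from a different animal. Blood was taken from the heart at death, and centrifugation parted the plasma from leukocytes and erythrocytes. How leukocytes were parted from erythrocytes was not stated. For comparison, leukocyte libraries of 16 C57Bl/6 mice (C57; 5 irradiated and 11 sham, month 6) and erythrocyte (RBC) libraries of the C3H mice (7 irradiated and 8 sham) were used.

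MiRNA are short RNA that guide repression of messenger RNA, and the seed, bases 2 to 8 from the 5′ end, sets most of their target choice. Blood cell lineages differ sharply in the miRNA they hold. MiR-150-5p is abundant in mature lymphocytes, miR-223-3p in neutrophils and monocytes, both arms of miR-142a in all cells of haematopoietic origin, and miR-451a with miR-144 in erythroid cells. A shift in the make-up of blood would therefore be seen as a shift in these markers, and in a bulk sample fewer cells of a type and less of a miRNA per cell cannot be told apart.

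Total counts ranged from 3945967 to 7865102 per library, and 383 to 496 miRNA had at least 1 count. A few sequences filled most of each library. MiR-16-5p alone took 49.4% ± 4.58 of the counts in sham libraries (SD, n = 5) and 50.3% ± 6.00 in irradiated libraries (SD, n = 6), and let-7i-5p took 16.4% ± 4.85 and 18.04% ± 2.45. The 10 most abundant miRNA together held 89.3% of the counts, on average over the 11 libraries. Irradiated replicate 6 stood apart at 60.7% miR-16-5p. Its 10 leading miRNA took 94.3% of the counts.

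The mature sequences below are those of the most abundant miRNA, of lineage markers, and of the miRNA with the smallest p-values for which a sequence can be shown. All come from RefSeq (GRCm38.p6), which matched 243 of the 291 miRNA tested, and the seed is in capitals. The abundant miRNA come first.
miR-16-5p: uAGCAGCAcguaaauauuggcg
let-7i-5p: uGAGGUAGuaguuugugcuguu
miR-93-5p: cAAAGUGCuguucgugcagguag
miR-25-3p: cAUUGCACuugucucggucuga

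Markers of blood lineages and of endothelium and platelets follow.
miR-223-3p: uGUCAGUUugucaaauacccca
miR-142a-3p: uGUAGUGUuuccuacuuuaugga
miR-142a-5p: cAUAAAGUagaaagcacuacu
miR-451a: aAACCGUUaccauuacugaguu
miR-126a-3p: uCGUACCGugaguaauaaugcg

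The last set holds 7 of the 10 miRNA with the smallest p-values between irradiated and sham leukocytes.
miR-1953: uGGGAAAGuucucaggcuucug
miR-330-5p: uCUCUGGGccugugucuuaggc
miR-324-3p: cCACUGCCccaggugcugcu
miR-9-3p: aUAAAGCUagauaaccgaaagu
miR-3535: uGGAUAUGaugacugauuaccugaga
miR-338-3p: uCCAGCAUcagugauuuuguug
miR-28a-3p: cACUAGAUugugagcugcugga

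These 7 sequences have 7 different seeds. MiR-1953 lies at chr2:151967581-151967602 on the minus strand, outside any protein-coding or long non-coding gene of its strand in GENCODE vM21. MiR-330-5p lies within Eml2 at chr7:19181486-19181507, miR-324-3p within Dvl2 at chr11:70012095-70012114, and miR-338-3p within Aatk at chr11:120014781-120014802. MiR-28a-3p lies in an intron of Lpp at chr16:24827908-24827929, and miR-3535 within Ncl at chr1:86352062-86352087. MiR-9-3p can come from 3 loci, on chromosomes 3, 7 and 13.

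The fraction label was checked first, by comparing sham leukocyte with sham erythrocyte libraries of the same strain. In a joint fit of 26 libraries, 37 of 224 miRNA differed (16.5% called, which asks for an adjusted p-value under 0.05 together with a log2 change of 1.17 or more in size, the fold minimum), with 22 higher and 15 lower in leukocytes. MiR-223-3p was higher in sham leukocytes by 1.44 on the log2 scale (adjusted p = 0.0286, limma), at 303 ± 192 RPM (reads per 1000000 counts of the library, SD, n = 5) against 106 ± 55.9 RPM (SD, n = 8). MiR-150-5p was higher by 1.32 (adjusted p = 0.0138, limma), at 246 ± 245 against 80.5 ± 30.6 RPM. MiR-223-5p and miR-146a-5p, a feedback regulator of innate immune signalling, were called in the same direction. When each sham leukocyte library was left out in turn, miR-223-5p and miR-146a-5p were called each time. MiR-150-5p was not called without sham replicate 5 (log2 difference 0.94, adjusted p = 0.0623, limma), and miR-223-3p not without sham replicate 2, 3 or 5 (1.14, 1.30 and 1.49, adjusted p from 0.0527 to 0.112, limma). The count of 37 became 26 without sham replicate 2 and 25 without sham replicate 5, and 37 to 41 without another one.

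Erythroid markers were abundant in both fractions. MiR-451a stood at 8598 RPM in sham leukocytes and at 17564 RPM in sham erythrocytes, and it was not called (log2 difference -0.59, adjusted p = 0.166, limma). Both arms of miR-144 were likewise lower in leukocytes by RPM, while miR-486a-5p went the other way, at 11103 RPM in sham leukocytes and 7355 RPM in sham erythrocytes, and none of these was called. Neither arm of miR-142a, the marker of all haematopoietic cells, separated the fractions, with log2 differences of 0.50 for miR-142a-3p and -0.26 for miR-142a-5p. The 4 erythrocyte markers together took 3.01% to 4.46% of the counts in sham leukocyte libraries and 1.79% to 3.64% in irradiated ones. The fraction labelled WBC thus held more of some myeloid and innate immune miRNA than the RBC fraction, a lymphocyte miRNA whose call rests on 1 library, and erythroid miRNA as well. The part of carried-over erythrocytes in the results below was not tested.

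**Figure D1:**
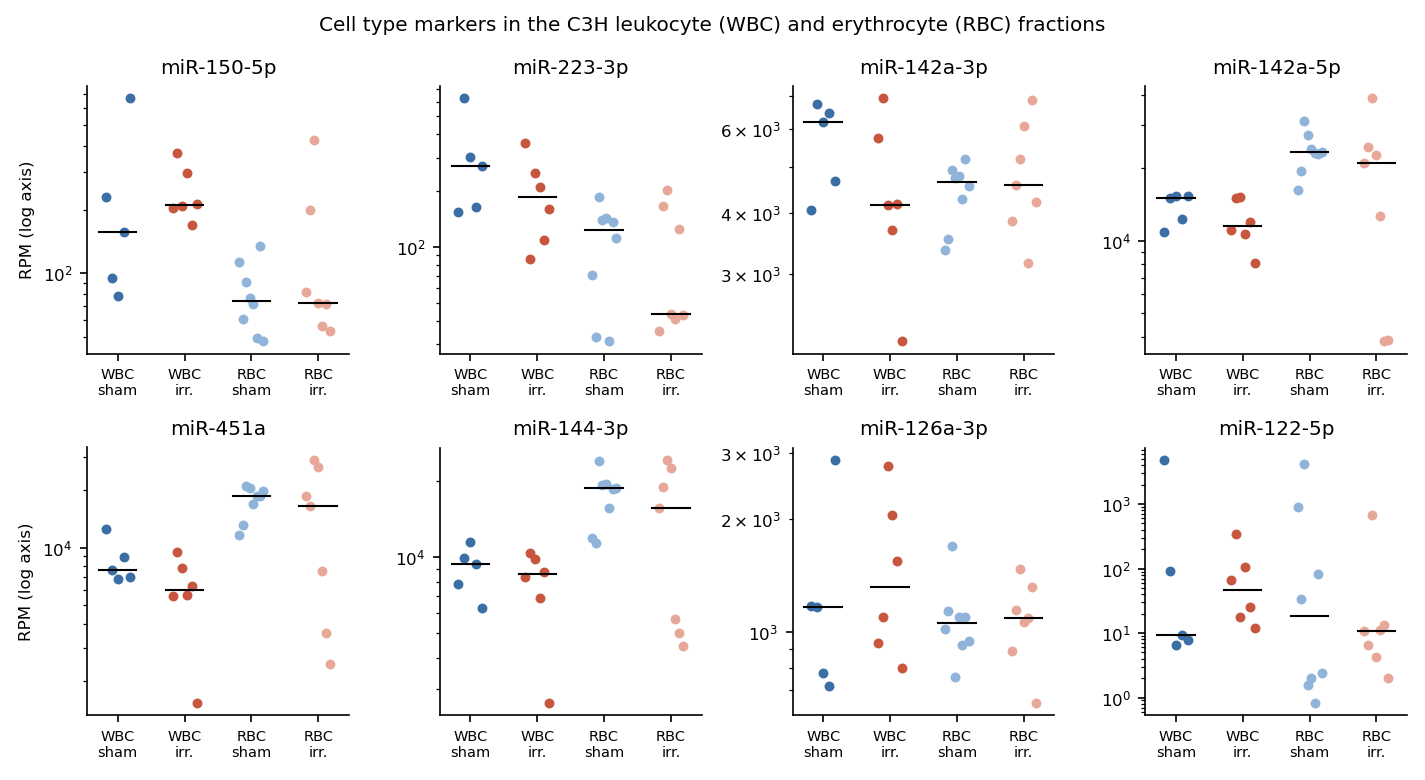
Level of 8 marker miRNA in each C3H library as RPM on a log axis, for leukocyte (WBC) and erythrocyte (RBC) fractions of sham and irradiated mice (irr.), with the group median as a line. MiR-150-5p and miR-223-3p have higher means in sham leukocytes than in sham erythrocytes, miR-451a and miR-144-3p are abundant in both fractions, and irradiated and sham leukocytes overlap for every marker.

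Irradiated and sham leukocytes were then compared over 291 miRNA that passed a filter on low counts, out of 1915 in the table. The filter was shared with the C57 leukocyte libraries, and 212 of the 291 also passed it in C3H alone. No miRNA was called by the same rule (0 of 291, 0%), and none passed the adjusted p-value alone. The smallest adjusted p-value was 0.311 (limma). At an unadjusted p-value under 0.05 there were 20 miRNA (6.87% of those tested), 8 higher in irradiated leukocytes (2.75%) and 12 lower (4.12%). EdgeR and DESeq2, which also called 0, gave 25 (6 higher and 19 lower) and 29 (8 higher and 21 lower). The balance turned with C3H libraries alone, at 8 higher and 5 lower. Of the 20, 5 also had an estimate past the fold minimum (1.72%).

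The estimated changes were small and centred near 0. Their median was 0.02 on the log2 scale, and the middle 90% of them ran from -0.84 to 0.72. Of the 291, 153 were higher and 135 lower in irradiated mice, and 3 were equal. The scaling moved this balance. When only library size was used in place of quantile normalisation, the median went to -0.34, and 63 were higher and 228 lower. For this reason the changes below are read against the median of all miRNA on the same scale.

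The data did limit how large a change could have been present. The 95% interval of the change lay wholly inside the fold minimum for 149 of the 291 miRNA (51.2%). The share was higher among abundant miRNA. It was 28.7% of 143 miRNA with under 10 RPM, 64.7% of 68 with 10 to 100 RPM, 75.5% of 49 with 100 to 1000 RPM and 87.1% of 31 with over 1000 RPM, and the median size of the estimate also went down over these classes, from 0.40 to 0.13 on the log2 scale. The last class holds miRNA whose values quantile normalisation sets by rank, such as miR-16-5p, let-7i-5p and miR-93-5p, so its share and its estimates are partly fixed by the scaling. The first class holds 1 miRNA with 0 counts in all 11 libraries. Its estimate was 0.40 with quantile normalisation and 0 with edgeR, so the scaling also bears on estimates at the lowest counts. Under 10 RPM a median interval reached 0.96 to either side of the estimate on the log2 scale. All 20 miRNA with an unadjusted p-value under 0.05 had a mean under 100 RPM, 14 of them under 10 RPM. For the miRNA without such an interval, a change past the fold minimum may not have been detectable at this depth and spread.

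**Figure D2:**
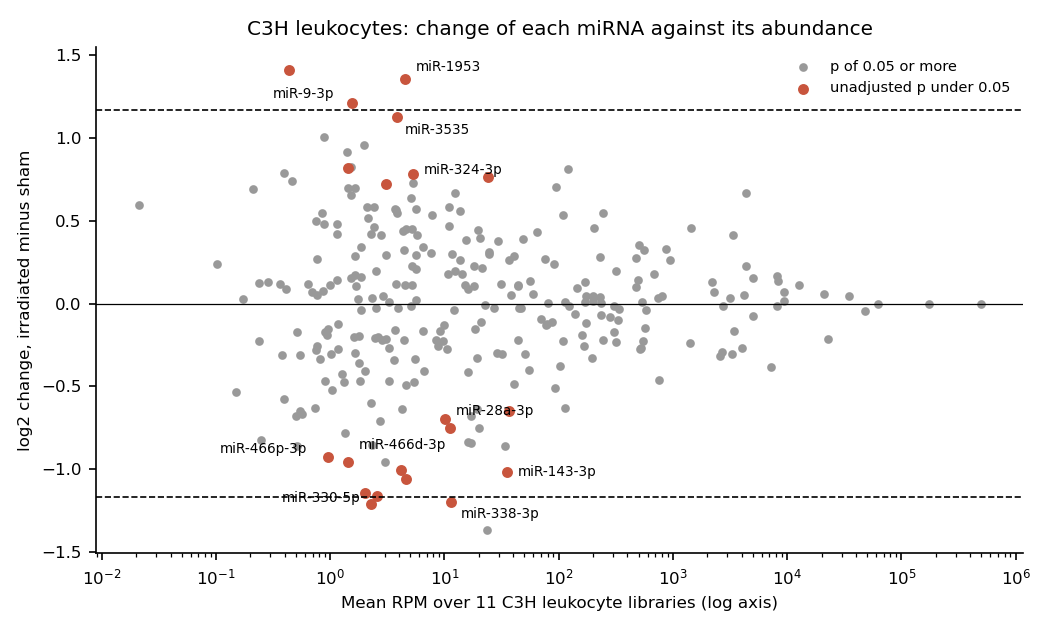
Change of each miRNA (irradiated minus sham leukocytes, log2 scale) against its mean RPM on a log axis. Each point is 1 miRNA, dashed lines mark the fold minimum (1.17 on the log2 scale) and red points have an unadjusted p-value under 0.05, all 20 of them at under 100 RPM. The 1 miRNA with 0 counts in all 11 libraries is not drawn.

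The most abundant miRNA overlapped between the groups. MiR-16-5p, whose seed is shared by the miR-15 and miR-195 family and which represses cell cycle genes, was at 481002, 432647, 508751, 558688 and 487007 RPM in sham replicates 1 to 5. In the irradiated libraries it ran from 444359 to 607466 RPM with a median of 498733. The groups overlapped almost fully. Quantile normalisation gives the top-ranked miRNA the same value in every library, so its fitted change of 0 carries no information, and with TMM factors in edgeR the change was 0.36, on a scale where the median of all miRNA was -0.05.

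Let-7i-5p, a member of the let-7 family that restrains growth and pluripotency genes, was at 138804, 229237, 197919, 142335 and 110233 RPM in sham and at 135745 to 201815 RPM (median 187521) in irradiated libraries. Its sham values alone spanned the whole irradiated range. MiR-93-5p and miR-25-3p, which lie within Mcm7, a replication gene, had estimates of 0 and -0.05, where the ranks again bear on the value, and of 0.42 and 0.25 with edgeR.

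The 10 miRNA with the smallest p-values are described next, and 0 of the 291 miRNA had RPM that did not overlap between the groups (0%). On the quantile-normalised scale 1 miRNA did not overlap (0.344%), and this was miR-1953.

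MiR-1953 had the smallest p-value. It was at 3.58, 4.39, 2.31, 2.50 and 2.47 RPM in sham replicates 1 to 5, and the irradiated libraries ran from 4.07 to 8.36 RPM with a median of 5.34. The change was 1.36 on the log2 scale (SE 0.39, unadjusted p = 0.00193, adjusted p = 0.311, limma), with 10 to 43 counts per library behind it. All 6 irradiated libraries were above the sham median. The change was 0.77 among libraries whose titles carry an A and 1.82 among those with a B, letters whose meaning was not stated.

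MiR-330-5p was at 6.53, 3.46, 1.16, 3.25 and 5.56 RPM in sham libraries and at 0.168 to 4.05 RPM (median 0.988) in irradiated ones. Of the irradiated libraries, 5 of 6 were below the sham median, and 1 was within the sham range. The difference was -1.16 (SE 0.34, adjusted p = 0.311, limma), from 1 to 31 counts per library. MiR-326-3p, which shares the seed of miR-330-5p and was more abundant, differed by -0.49, with an interval from -1.28 to 0.31.

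MiR-338-3p had the largest negative estimate of the 10. It was at 22.8, 25.2, 9.48, 7 and 21.4 RPM in sham libraries and at 2.69 to 12.9 RPM (median 6.12) in irradiated ones. All 6 irradiated libraries were below the sham median, but sham replicates 3 and 4 lay inside the irradiated range. The difference was -1.19 (SE 0.41, adjusted p = 0.311, limma).

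MiR-143-3p, abundant in smooth muscle and other mesenchymal cells, was the most abundant of the 10. Sham libraries held 88.1, 51.3, 16.9, 15.5 and 101 RPM, and irradiated ones 4.88 to 32.8 RPM with a median of 19.6. Again 2 sham libraries lay within the irradiated range. The difference was -1.02 (SE 0.35, adjusted p = 0.311, limma). Of the other 4 mesenchymal markers, miR-199a-3p differed by -0.33, and miR-145a-5p, miR-199a-5p and miR-214-3p did not pass the filter, with the last at 0 counts in all 11 libraries. In heart of sham C3H mice, which also holds this marker, miR-143-3p was at 51963 RPM.

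The other 6 of the 10 were scarce. Of these, miR-9-3p, miR-466p-3p and miR-466d-3p were tested in only 19 of the 21 alternatives. The C57 libraries shared the filter, so the place of these miRNA among the 291 may rest on C57 counts. MiR-9-3p, better known from the nervous system, was at 2.53, 0.924, 0, 0.5 and 1.44 RPM in sham and at 0.337 to 4.31 RPM (median 1.61) in irradiated libraries, a difference of 1.21. Its other arm, miR-9-5p, was more abundant at a mean of 55.9 RPM and differed by 0.13 (unadjusted p = 0.789, limma). MiR-3535 differed by 1.13 and miR-324-3p by 0.78, and miR-324-5p, the other arm of the latter, by 0.40. MiR-28a-3p was lower by 0.70, with all 6 irradiated libraries below the sham median of 16.2 RPM. Its 5p arm, at a mean of only 0.74 RPM, was lower by 0.63 (unadjusted p = 0.271, limma). MiR-466p-3p and miR-466d-3p, of a repeated family whose reads may be shared between copies, differed by -0.93 and -0.95. None of these passed adjustment.

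**Figure D3:**
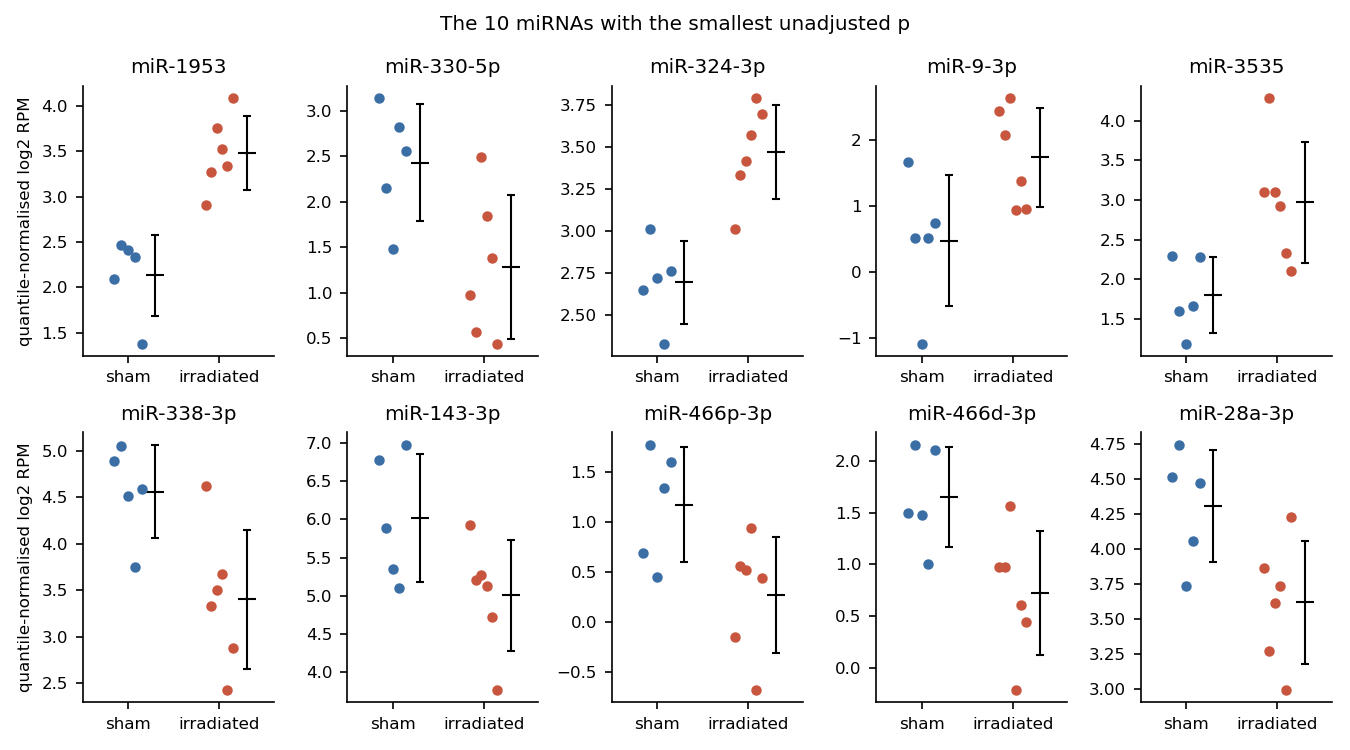
Quantile-normalised log2 RPM of the 10 miRNA with the smallest unadjusted p-values in each sham (blue, n = 5) and irradiated (red, n = 6) leukocyte library, with the mean and SD beside the points. The groups overlap in all panels but that of miR-1953.

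Among all miRNA tested, the largest negative estimates were those of miR-99b-5p (-1.37), miR-215-5p (-1.21), miR-338-3p, miR-330-5p and miR-598-3p (-1.14), and the largest positive ones those of miR-1969 (1.41), miR-1953, miR-9-3p, miR-3535 and miR-672-5p (1.00). MiR-1969 and miR-672-5p had at most 8 counts in any library. MiR-99b-5p had a wide interval, from -2.84 to 0.10. Its transcript, within Spaca6 on chromosome 17, also carries let-7e-5p and miR-125a-5p, and all 4 miRNA tested from this cluster had a negative estimate, from -1.37 to -0.84, none with an unadjusted p-value under 0.05. The cluster of miR-96, miR-182 and miR-183 had 3 positive estimates, from 0.57 to 0.91, likewise with 0 under 0.05. Of 21 clusters with at least 3 miRNA tested, these have the lowest and the highest median and were singled out for it after their values were seen, while the medians of the other 19 ran from -0.27 to 0.21. Both signs held in each of the 4 other scalings or count tests run, which reuse the same libraries. With TMM factors in voom the median of the miR-99b cluster was -1.29 in place of -0.86. Over the alternatives that tested them, let-7e-5p had an unadjusted p-value under 0.05 in 8 of 21 and miR-99b-5p in 5 of 20.

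The lymphocyte and myeloid markers did not separate the groups. MiR-150-5p was at 230, 95.2, 78.4, 157 and 671 RPM in sham libraries and at 169 to 372 RPM (median 211) in irradiated ones. The sham libraries spread more widely than the irradiated ones, and sham replicate 5 was the highest of all 11. The difference was 0.55 with a 95% interval from -0.69 to 1.79 (adjusted p = 0.938, limma). The other lymphocyte markers, miR-342-3p and miR-181a-5p, differed by 0.09 and 0.01.

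MiR-223-3p was at 154, 626, 303, 163 and 271 RPM in sham and at 86.1 to 359 RPM (median 184) in irradiated libraries. The difference was -0.22 with an interval from -1.27 to 0.83, and miR-223-5p differed by -0.27. The ratio of miR-150-5p to miR-223-3p within a library, taken from raw counts so that library size cancels, stood at -0.56 ± 1.71 in sham (log2, SD, n = 5) and at 0.43 ± 0.99 in irradiated leukocytes (SD, n = 6). That difference of 1.00 was not significant (p = 0.262, exact permutation test over 462 splits, two-sided, and 0.527 adjusted over 5 such tests). From quantile-normalised values the difference was 0.77. It was 2.003 within letter A and -0.30 within letter B, so its direction did not hold within both letters.

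No erythroid marker was called. MiR-451a ran from 6883 to 12500 RPM in sham and from 1540 to 9454 RPM in irradiated libraries, and irradiated replicate 6 held the lowest value. The difference was -0.38 with a 95% interval from -1.40 to 0.64, which reaches past the fold minimum. The ratio of miR-451a to miR-142a-3p was lower by 0.27 on the log2 scale in irradiated leukocytes (p = 0.455, exact permutation test, two-sided). Of the 4 erythrocyte markers, 2 had a positive and 2 a negative estimate, with a median of 0.03, beside 0.02 for all 291 miRNA. With TMM factors in voom all 4 were negative, with a median of -0.07, beside -0.05 for all miRNA. MiR-486a-5p and miR-486b-5p had near-equal counts, and how shared reads were assigned was not stated.

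MiR-126a-3p, of endothelial cells and platelets, was at 1174, 1163, 777, 720 and 2880 RPM in sham and at 800 to 2763 RPM (median 1320) in irradiated libraries. Its ratio to miR-142a-3p was higher by 0.64 (p = 0.273, exact permutation test, two-sided). That difference was -0.20 within letter A and 0.85 within letter B. The smallest p these splits allow is 0.00216. Total count and the number of miRNA detected, 436 ± 44.8 in sham and 428 ± 34.1 in irradiated libraries, did not separate the groups either (p = 0.316 and 0.727, exact permutation tests, two-sided). With each library thinned to the smallest total, the difference in miRNA detected was -27.1 in place of -8.57 (p = 0.245, exact permutation test, two-sided).

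Of the markers of tissues outside blood, those of heart muscle were low. MiR-208a-3p, made in heart muscle, had 0 counts in all 11 libraries, while it was at 11332 RPM in heart of sham C3H mice, and a count of 0 allows at most 0.76 RPM in the smallest library. MiR-1a-3p, at 224460 RPM in sham heart, was at 6.26 and 5.28 RPM in sham and irradiated leukocytes. Of the epithelial markers, miR-141-3p was at 189 ± 23.9 RPM in sham (SD, n = 5) and 162 ± 57.5 RPM in irradiated leukocytes (SD, n = 6) and miR-200c-3p at 134 ± 66.7 and 87.8 ± 16.9 RPM, and they differed by 0.04 and -0.22. The other 3 epithelial markers were at under 1 RPM on average in both groups. MiR-122-5p, a hepatocyte marker, was at 4883, 90.5, 6.48, 9.25 and 7.82 RPM in sham replicates 1 to 5 and at 12.1 to 342 RPM in irradiated libraries. Sham replicate 1 alone held the high value, and the interval of the difference of 0.36 ran from -2.02 to 2.73. Its sign turned with the test and its size with this library. The difference was -3.05 with edgeR (adjusted p = 0.386) and -2.95 with DESeq2, and 1.91 without sham replicate 1 (adjusted p = 0.542, limma).

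Families tied to radiation responses in other settings showed no called member. Of 9 miRNA listed for p53 and DNA damage, 4 passed the filter. MiR-34a-5p, a direct p53 target that halts the cell cycle, was at 29.1, 23.6, 13.2, 12.7 and 44.0 RPM in sham and at 8.25 to 24.6 RPM (median 13.9) in irradiated leukocytes. The groups overlapped, with irradiated values that reached below the lowest sham value, and the difference was -0.33 with an interval from -0.79 to 0.14. MiR-215-5p differed by -1.21 (unadjusted p = 0.0207, adjusted p = 0.534, limma), while miR-192-5p, with the same seed, and miR-194-5p differed by 0.28 and 0.00. Only 19 of the 21 alternatives tested miR-215-5p, and its unadjusted p-value was under 0.05 in 17 of them. The listed arms of miR-34b and miR-34c, which had at most 3 counts in any library, and miR-145a-5p were not tested. One of 4 tested members had an unadjusted p-value under 0.05, beside 6.87% of all miRNA.

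All 7 inflammation miRNA were tested, and 0 had an unadjusted p-value under 0.05, beside 6.87% of all miRNA. In 6 of the 20 alternatives that tested it, miR-21a-3p had such a p-value. MiR-21a-5p, induced in inflamed and fibrotic tissue, ran from 15920 to 35031 RPM in sham and from 6726 to 32437 RPM in irradiated libraries, and differed by -0.21 with an interval from -0.77 to 0.34. MiR-155-5p, induced on activation of lymphocytes and macrophages, differed by 0.47 and miR-146a-5p by 0.04, both with intervals that reached past the fold minimum. The median of the 7 was -0.21, beside 0.02 for all miRNA, but with edgeR both medians were -0.05, so the offset did not hold across scalings.

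Most members of the families of proliferation and growth control had an interval inside the fold minimum. Of all 291 miRNA 51.2% had one, and so did 75.5% of those with 100 to 1000 RPM and 87.1% of those with over 1000 RPM. Abundance was not matched, so the counts below do not set these families apart. Of 13 members of the miR-17-92 cluster and its paralogs, which promote proliferation of lymphoid and erythroid progenitors, 7 had a positive and 5 a negative estimate, the median was 0.01, and 11 had an interval inside the fold minimum. Of 9 let-7 and miR-98 members, 7 were positive, 7 were bounded this way, and the median was 0.06. Let-7b-5p (0.67) and let-7e-5p (-0.86) were the exceptions in size. With edgeR, DESeq2 and voom with TMM factors, 8 of the 9 let-7 and miR-98 members were positive. Their medians there were 0.20, 0.19 and 0.21, each beside -0.05 for all miRNA. The 6 members of the miR-15/16 family had a median of 0.02. Quantile normalisation sets the values of miR-16-5p, so the intervals of this family were taken from voom with TMM factors, where all 6 lay inside the fold minimum, beside 13 of 13 for miR-17-92 and 7 of 9 for let-7. Among all 291 miRNA, 136 had such an interval with TMM factors. With library size alone the medians of these 3 families were negative, at -0.26, -0.07 and -0.27, beside -0.34 for all miRNA. All 3 miR-29 members, which repress collagen genes, had a negative estimate under each scaling, and with quantile normalisation these ran from -0.46 for miR-29a-3p to -0.12 for miR-29c-3p, none with an unadjusted p-value under 0.05. With edgeR miR-29a-3p was at -0.77. Its unadjusted p-value was under 0.05 with edgeR and DESeq2, as was that of miR-29b-3p in limma with sample weights or without sham replicate 1. The estimate of miR-29c-3p was positive without sham replicate 2 (0.14) or irradiated replicate 4 (0.01). MiR-181b-5p was the exception in the miR-181 family, at -0.75 (unadjusted p = 0.0375, adjusted p = 0.641, limma), while miR-181a-5p, miR-181c-5p and miR-181d-5p, with the same seed, differed by 0.01, -0.03 and -0.22. The estimate of miR-181b-5p ran from -1.06 to -0.45 over 21 alternatives, and its unadjusted p-value was under 0.05 in 10 of them.

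**Figure D4:**
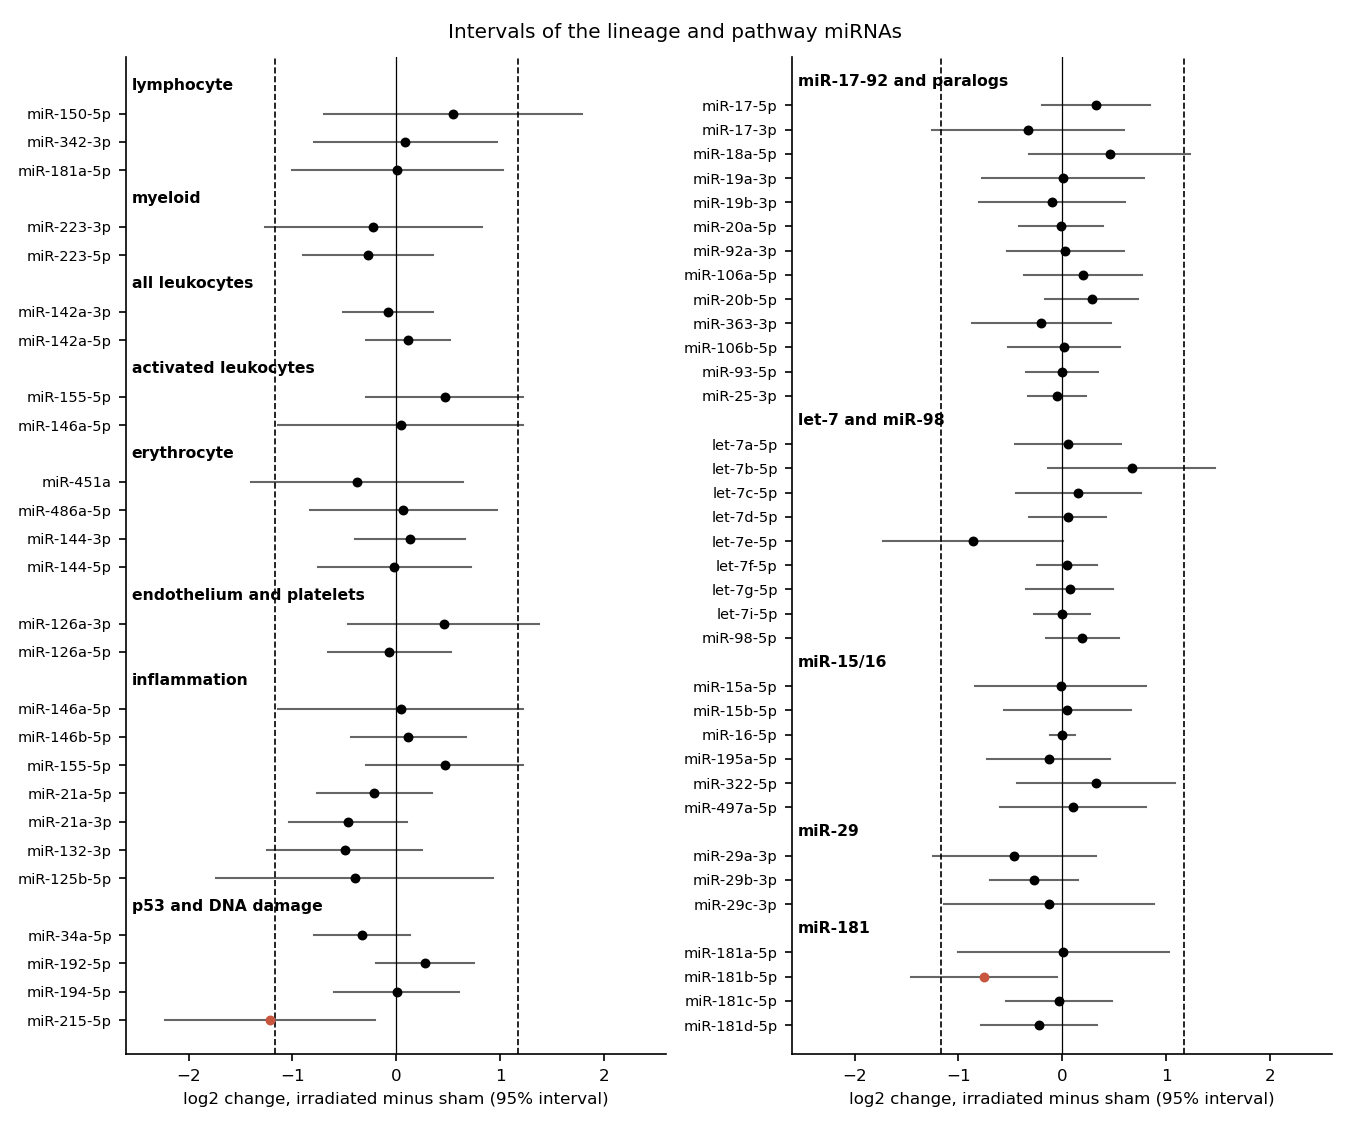
Change (irradiated minus sham leukocytes, log2 scale) and its 95% interval for the tested members of 13 lists of lineage and pathway miRNA, with dashed lines at the fold minimum and red points at an unadjusted p-value under 0.05. Most intervals of the miR-17-92 and let-7 families lie inside the dashed lines, with let-7b-5p, let-7e-5p, miR-17-3p and miR-18a-5p as the exceptions, and only miR-215-5p and miR-181b-5p are red. Of all 291 miRNA tested, 51.2% had an interval inside these lines.

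The 9 miRNA that the study followed in lung were chosen by the study on lung of these animals. In leukocytes 6 of them passed the filter, 2 with a positive and 4 with a negative estimate, and 0 had an unadjusted p-value under 0.05. Among all 291 miRNA 153 were higher and 135 lower, and 6.87% had such a p-value. Over the alternatives that tested them, miR-21a-3p had one in 6 of 20, miR-196b-5p in 4 of 21 and miR-335-5p in 2 of 18. MiR-34a-5p stood at 472 ± 72.9 RPM in sham lung (SD, n = 8) and at 1499 ± 239 RPM in irradiated lung (SD, n = 7), and miR-21a-3p at 14.9 ± 4.10 and 60.7 ± 31.2 RPM. In leukocytes the latter was at 4.52 and 2.27 RPM, a difference of -0.46. MiR-196b-5p had the largest estimate of the 6 at 0.81 (adjusted p = 0.714, limma). MiR-7b-5p, at 203 ± 60.7 RPM in irradiated lung, had at most 11 counts in any leukocyte library. Whether the change differed between lung and leukocytes was not tested.

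Leukocytes of C57 mice were compared next, with the limit that strain and month (4 against 6) cannot be told apart. Sex differed as well, since all C3H mice were female, while the C57 libraries came from 4 males and 1 female after WTLI and from 7 males and 4 females after sham irradiation. In C57 leukocytes 0 miRNA were called and 12 had an unadjusted p-value under 0.05 (4.12%). No miRNA was called by the interaction of strain and irradiation (0 called, smallest adjusted p = 0.611, limma), and 5 had an unadjusted p-value under 0.05 (1.72%). With sex as a covariate 0 were called and 6 had such a p-value. The smallest interaction p-values were those of miR-9-3p, with a change of 1.21 in C3H and -0.52 in C57, and of miR-143-3p, with -1.02 and 0.48. The sign was the same in both strains for 203 of 291 miRNA, and across miRNA, which are not independent and were normalised together, Pearson's r was 0.52. MiR-28a-3p, miR-598-3p and miR-190b-5p had an unadjusted p-value under 0.05 in both, with the same sign.

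**Figure D5:**
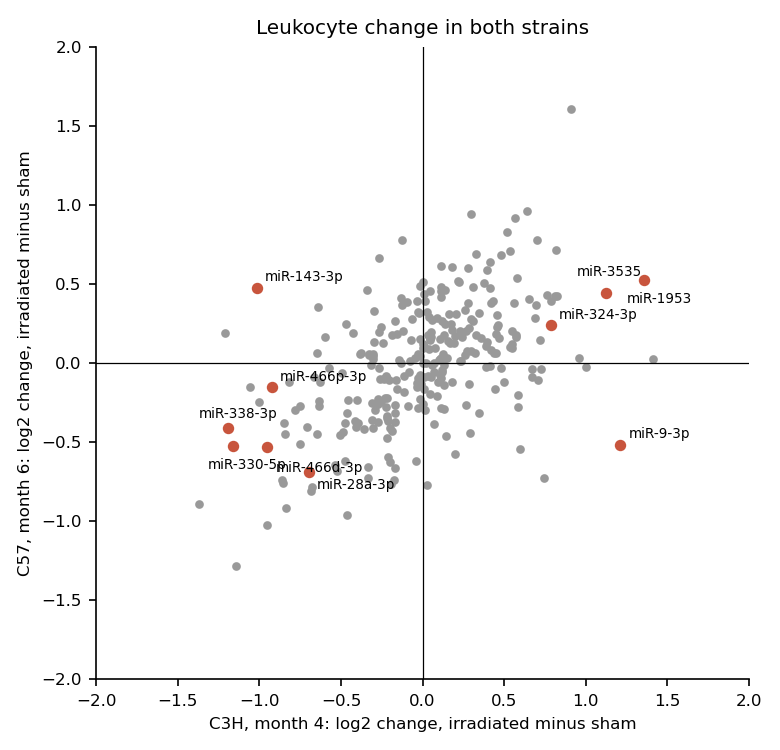
Change (irradiated minus sham, log2 scale) of each of 291 miRNA in C3H leukocytes in month 4 against C57 leukocytes in month 6, with the 10 smallest p-values of C3H in red. MiR-143-3p and miR-9-3p lie in the quadrants of opposite sign, and the other 8 have the same sign in both strains.

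Erythrocytes of the C3H mice gave the second comparison. No miRNA was called for a difference in its change between leukocytes and erythrocytes (0 of 224, 0%, smallest adjusted p = 0.725, limma), and 12 had an unadjusted p-value under 0.05 (5.36%). In erythrocytes alone 0 miRNA were called and 34 had an unadjusted p-value under 0.05 (15.2%). Irradiated erythrocyte replicates 5 to 7 stood apart, with 2463 to 7511 RPM of miR-451a against 11707 to 28904 RPM in the other erythrocyte libraries. Without these 3 libraries 2 of 229 miRNA had such a p-value in erythrocytes, and the difference between the fractions again had 0 calls (8 at an unadjusted p-value under 0.05). A smaller group also lowers such a count, and leaving out 3 other irradiated libraries was not tried. Whether the 34 rest on these libraries was therefore not tested. Irradiated erythrocyte replicates 5 to 7 came from the mice of irradiated leukocyte replicates 4 to 6. MiR-181b-5p and miR-181d-5p had the smallest p-values of the difference. MiR-181b-5p changed by -0.70 in leukocytes and 0.62 in erythrocytes in the fit of all 26 libraries (adjusted p of the difference 0.725, limma). MiR-330-5p changed by -1.47 in leukocytes and -0.13 in erythrocytes, and miR-1953 by 1.23 and 0.78. Without the 3 libraries the changes in erythrocytes were 0.32 for miR-181b-5p and 0.02 for both others. Libraries of 1 animal correlated between the fractions from -0.27 to 0.71 (11 pairs, median 0.24, deviations from group means).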

How the data were processed

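MiRNA libraries were prepared and sequenced by the authors, whose pipeline trimmed adapters before alignment to the miRNA of mouse build mm10. The deposited tables hold raw counts of 1915 mature miRNA in each library, not normalised by the authors. How reads fitting several miRNA were assigned, and whether molecular identifiers were used, is not given in the sources used here, so count-based limits cover counting error only. Groups came from the sample titles. Every column named a sample, and all pairs of libraries within a group differed by more than sampling noise (smallest chi-square per degree of freedom 101).

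Counts of 27 leukocyte libraries were filtered with filterByExpr of edgeR 4.0.16 (count minimum 10, total minimum 15), turned into quantile-normalised log2 RPM with voom and fitted with limma 3.58.1 in R 4.3.3, with 4 groups (strain by irradiation). As the C57 libraries shared the filter, 212 of the 291 miRNA tested also passed it in C3H alone. Changes are log2 differences of these values, and limma's p-values were adjusted by Benjamini-Hochberg across every miRNA tested. A miRNA was called when its adjusted p was under 0.05 and its change was at least 1.17 on the log2 scale. The fold minimum and a p-value cutoff come from the study, and applying the cutoff to adjusted p-values was chosen here. Leukocytes and erythrocytes were compared in a joint fit of 26 C3H libraries. The animal number in the titles pairs these libraries, since both fractions came from the same mouse, and correlations of their deviations from group means ranged from -0.27 to 0.71. Animals were taken as replicates. Single values were compared by exact permutation of the 11 libraries with SciPy 1.17.1, ratios as log2 of counts plus 0.5.

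Alternatives were edgeR and DESeq2 1.42.0, TMM factors, library size alone, miR-16-5p left out of totals, 2 other filters, detection after thinning to the smallest library, C3H alone, the title letter as covariate, sample weights, the animal as block and leaving out each library. Sex as a covariate, intervals per list with TMM factors, irradiated erythrocyte libraries 5 to 7 left out and sham fractions without each sham leukocyte library were added after seeing the data. The scripts were tested on simulated data. MiRNA named are list members, the 10 smallest p-values, the 5 largest rises and falls, the 10 most abundant, with other arms, seed sharers and clusters of these, miRNA with the smallest p-values of the differences or an unadjusted p-value under 0.05 in both strains, and the clusters with the lowest and highest median, the last groups named after their values were seen. Clusters were miRNA on 1 strand with gaps up to 10 kb. The comparison and the lists were chosen with earlier results of these data known.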

Additional observations from a re-analysis of the deposited data

Results flagged for a closer look

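In 10 of the 176 sets of group values examined, 1 library lay far from the rest of its group by Dixon's criterion, and chance gives about 1 in 20. The cause was not tested. Sham replicate 1 held the highest sham values of 3 miRNA. MiR-122-5p was at 4883 RPM there, against 6.48 to 90.5 RPM in the other sham libraries, miR-194-5p was at 128 RPM against 70.9 to 82.1 RPM, and miR-17-3p was at 395 RPM against 169 to 226 RPM.

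Sham replicate 5 stood apart for 3 others. MiR-150-5p, the lymphocyte marker, was at 671 RPM against 78.4 to 230 RPM in the rest of the sham group, miR-126a-3p at 2880 RPM against 720 to 1174 RPM, and miR-195a-5p at 24.9 RPM against 7.39 to 11.7 RPM. In irradiated replicate 2, miR-146a-5p was at 374 RPM against 107 to 177 RPM, miR-199a-3p at 15.0 RPM against 1.68 to 4.05 RPM, and miR-122-5p at 342 RPM against 12.1 to 104 RPM. In irradiated replicate 6, miR-29a-3p was the lowest of its group at 243 RPM, against 488 to 611 RPM.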

How the results depend on the processing

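No miRNA was called in C3H leukocytes under any alternative that was run, and none passed an adjusted p of 0.05. The smallest adjusted p over these fits was 0.0891 (limma, without sham replicate 3). The count at an unadjusted p under 0.05, 20 in the report, rose to 33 with library size alone (1 higher and 32 lower) and to 82 with the looser filter (883 miRNA tested), and fell to 7 with the stricter filter (153 tested) and to 13 with C3H libraries alone (212 tested). Leaving out 1 library gave 15 to 26. The number of miRNA with an interval inside the fold minimum, 149 in the report, was 448 with the looser filter, 102 with library size alone, 113 of 153 with the stricter filter, 178 with sample weights and 125 to 150 without 1 library. With the looser and stricter filters the number tested itself differs; for library size alone the cause was not tested. The higher to lower split went from 153 to 135 to 127 to 163 with edgeR and TMM and to 63 to 228 with library size alone. The 10 miRNA with the smallest p-values kept their sign in each alternative that tested them (19 to 21 of 21), and 5 kept an unadjusted p under 0.05 in each of these. They were picked for small p-values in the same libraries that the alternatives reuse, so this is no independent test of them.

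The interaction with strain and the difference from erythrocytes had 0 calls in every fit that was run, and with the animal as a block, which pairs the fractions, the latter again had 0 (smallest adjusted p 0.436, limma), while calls between sham fractions went from 37 to 44. For single values, leaving out 1 library gave differences of 0.08 to 0.27 for log2 total count, -21.9 to 6.33 for miRNA detected, whose sign turned without sham replicate 5, and 0.46 to 1.47, -0.38 to -0.01 and 0.40 to 1.02 for the log2 ratios of miR-150-5p to miR-223-3p, miR-451a to miR-142a-3p and miR-126a-3p to miR-142a-3p. With 6 against 5 animals the scarce miRNA set the limit, as half-widths of intervals under 10 RPM had a median of 0.96.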
